A study of Homo sapiens with 6 samples.

Results

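The subject here is 51 genes of the antioxidant defence controlled by the transcription factor NRF2, with the glutathione and thioredoxin systems, NADPH supply, carbonyl reduction, superoxide dismutases and catalase. They were taken by name from a list of members and matched to the deposited table of 20263 genes, in which all 51 had a row. The samples are HCT116 cells, an epithelial line from a human colorectal cancer. In 3 samples the cells had been treated with CSE and in 3 they were wild type (WT) cells with no treatment named. The labels do not expand CSE, which is taken here to be cigarette smoke extract because the series title speaks of smoking, and the sources used here give no dose, duration or vehicle. Expression is given as TPM, a share of all transcripts corrected for transcript length, and library depth is therefore unknown. The labels name no separate cultures, so the tests see only the spread between these samples.

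NRF2, encoded by NFE2L2, is held in the cytoplasm and passed to degradation by KEAP1, an adaptor of a CUL3 ubiquitin ligase. Oxidants and electrophiles modify cysteines of KEAP1, after which NRF2 builds up, pairs with small MAF proteins and binds antioxidant response elements, from which the repressor BACH1 can be displaced. Its textbook targets make glutathione, reduce thioredoxin, supply NADPH and detoxify quinones and carbonyls. Because NRF2 is controlled mainly through the stability of its protein, the mRNA values below do not measure its activity.

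The libraries carried the markers of the labelled cells. The 6 epithelial markers (EPCAM, CDH1, KRT8, KRT18, KRT19 and CLDN4) summed to 5575 to 5873 TPM in CSE samples and 5324 to 5578 TPM in WT samples. The 4 immune markers summed to 0.53 to 0.85 TPM in CSE samples and 1.11 to 1.84 TPM in WT samples, and the 3 endothelial markers to 0.54 to 0.73 TPM in CSE samples and 0.47 to 0.81 TPM in WT samples. Of the 6 fibroblast markers, DCN was listed at 0 in all 6 libraries and LUM at no more than 0.05 TPM, and COL1A1 made up nearly all of a sum of 38.0 to 38.7 TPM in CSE samples and 43.9 to 46.0 TPM in WT samples. Their part in the results was not tested. Mitochondrially encoded genes held 25.5% to 25.8% of the TPM in CSE samples and 27.0% to 30.2% in WT samples. CSE replicate 3 stood apart from the other CSE samples on the second principal component (score -9.31, against 4.35 and 5.70).

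In CSE-treated cells the antioxidant genes did not move as one block. Among the members, the genes of NADPH supply, most tested glutathione transferases, PRDX2, SOD1 and catalase were higher, while the rate-limiting glutathione synthesis subunits GCLM and GCLC, the peroxiredoxin repair enzyme SRXN1, PRDX1 and the NRF2 competitor BACH1 were lower. The classical NRF2 reporters NQO1 and TXNRD1 did not pass the test. Of the 43 members that passed the filter on low values (at least 1 TPM in at least 3 libraries), 21 were higher in CSE (48.8%, against 24.5% of all 12793 genes tested) and 9 were lower (20.9%, against 25.6% of all genes), and 13 did not pass. Calls are limma adjusted p values under 0.05, and in either direction 69.8% of the tested members were called, against 50.1% of all genes tested. All 43 were at 1 TPM or more in every library, so none passed the filter through one group alone. Fold changes are differences of mean log2(TPM + 1) between CSE and WT, positive where CSE is higher. Their median was 0.12 over the tested members and -0.0039 over all genes tested.

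These shares have to be read against expression level. Of the 43 tested members, 19 averaged 100 TPM or more, and 13 of these were called (11 higher, 2 lower). Over the 1273 genes at that level, 42.2% were called higher and 21.3% lower. Another 19 members averaged 10 to 100 TPM, of which 8 were higher and 6 lower, where 25.4% of 7740 genes were called higher and 26.5% lower. Most tested members had no called change of at least 1.2-fold (ratio of group means), and the same held over all genes tested. Such a change was called for 8 of the 43 tested members that rose and 5 that fell. Over all 12793 genes tested it was called for 1575 that rose and 1779 that fell (26.2% in either direction). CSE and WT values were fully separate for 33 of the 43 tested members (76.7%), against 57.4% of all genes tested. With mitochondrially encoded genes left out and the rest rescaled, 18 members were higher and 12 lower, and over all genes the share of calls that were higher was 34.1%, against 48.9% with TPM as deposited.

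**Figure D1:**
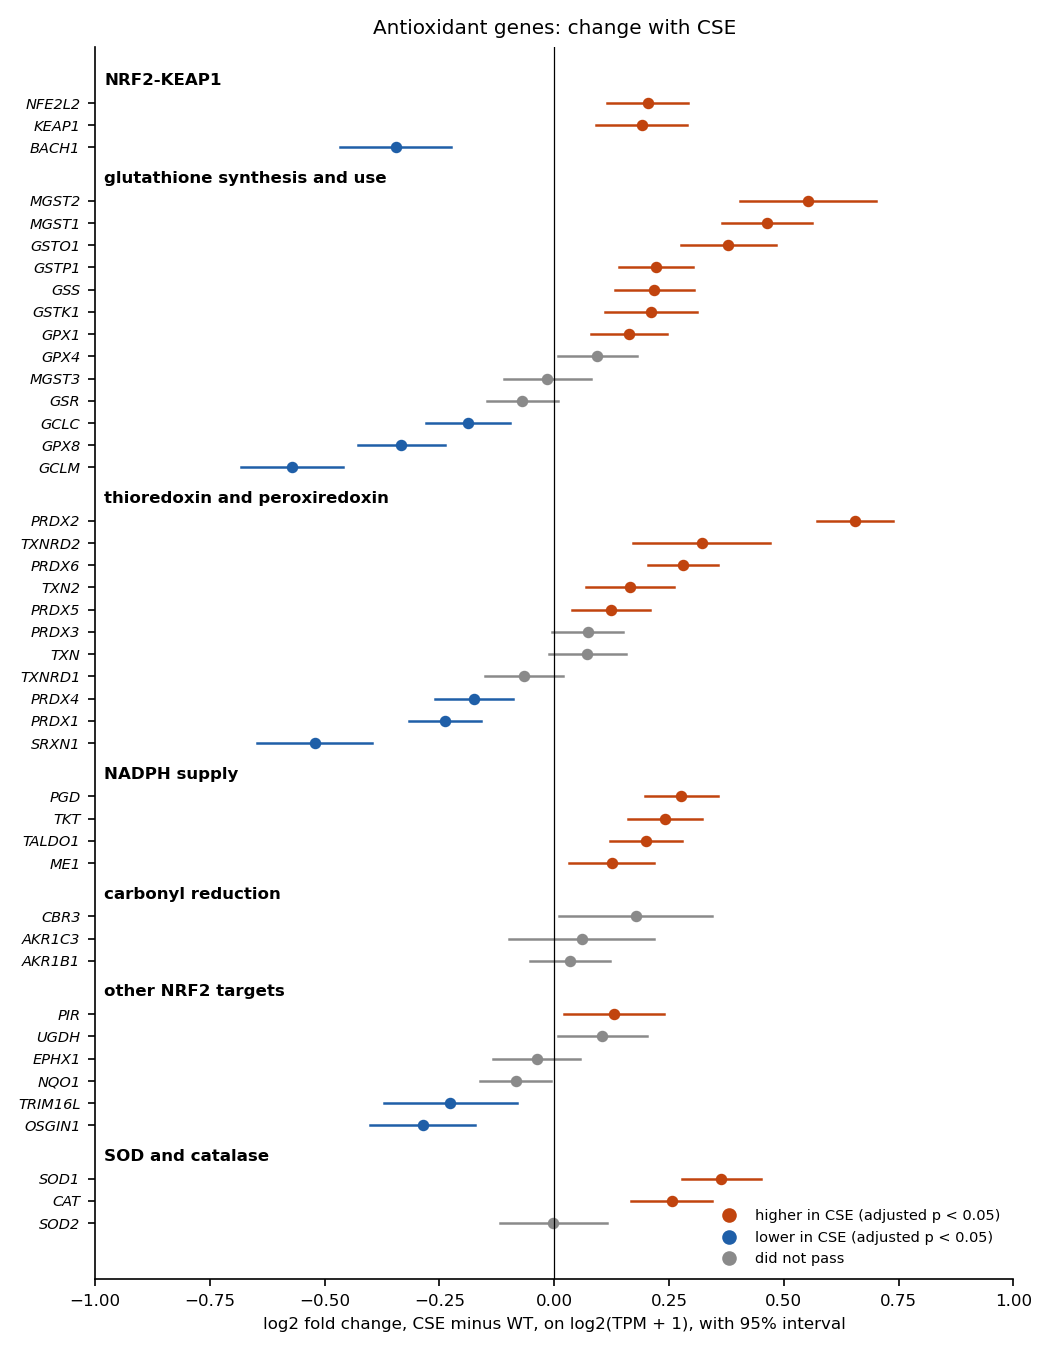
Log2 fold change (CSE minus WT, on log2(TPM + 1)) of the 43 tested members by functional group, as points with unadjusted 95% intervals; orange-red members passed as higher in CSE, blue as lower, and grey did not pass at a limma adjusted p of 0.05. Changes run from -0.57 for GCLM to 0.66 for PRDX2, and every tested NADPH supply gene lies to the right of 0.

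**Figure D2:**
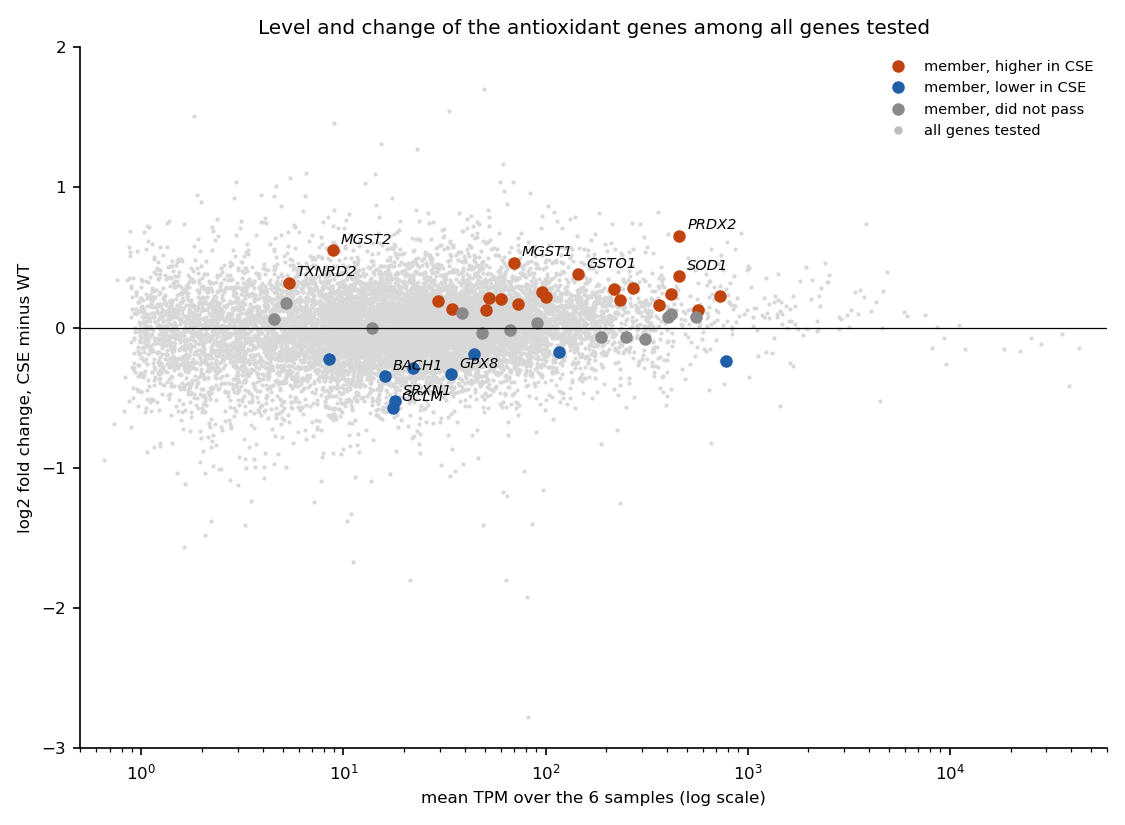
Mean TPM over the 6 samples (log axis) against log2 fold change (CSE minus WT) for all 12793 genes tested (grey dots) and for the members (coloured as higher, lower or not passed). The members lie inside the cloud of all genes, which spans -2.78 to 1.70, and most of those above 100 TPM lie above 0.

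Among the regulators, NFE2L2 and KEAP1 rose by similar small amounts and BACH1 fell. NFE2L2 (ENSG00000116044, chromosome 2, 177227595 to 177392697, minus strand) had 64.7, 65.0 and 63.3 TPM in CSE samples, against 56.9, 54.4 and 55.9 TPM in WT samples. All CSE values lay above all WT values, and NFE2L2 rose 1.15-fold (0.20 ± 0.0423 on the log2 scale with its SE, limma adjusted p = 0.000411). KEAP1 had 31.0, 32.1 and 31.5 TPM in CSE samples, against 28.0, 28.0 and 26.6 TPM in WT samples, again without overlap (0.19, SE 0.0481, limma adjusted p = 0.00236). The ratio of NFE2L2 to KEAP1 within a sample, on which a common scaling factor has no effect, was 2.04 ± 0.0388 in CSE and 2.03 ± 0.0799 in WT (SD, n = 3 each). BACH1, a haem-binding repressor that competes with NRF2 for its elements (ENSG00000156273, chromosome 21, 29194071 to 29630751, plus strand), had 14.8, 14.2 and 13.0 TPM in CSE samples, against 18.1, 18.5 and 17.5 TPM in WT samples. It was lower in every CSE sample (-0.35, SE 0.0585, limma adjusted p = 4.69e-05). The ratio of NFE2L2 to BACH1 was 4.61 ± 0.243 in CSE and 3.10 ± 0.141 in WT.

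The first step of glutathione synthesis was lower and the second higher. Glutamate-cysteine ligase joins glutamate to cysteine and sets the pace of the pathway, with GCLC as its catalytic and GCLM as its modifier subunit. GCLM (ENSG00000023909, chromosome 1, 93885205 to 93909456, minus strand) had 13.8, 14.2 and 13.7 TPM in CSE samples, against 21.1, 21.7 and 20.6 TPM in WT samples. The groups were far apart, and GCLM showed the largest fall of all tested members on this scale, 1.52-fold (-0.57, SE 0.0537, limma adjusted p = 1.67e-08). GCLC had 41.5, 42.1 and 40.5 TPM in CSE samples, against 46.7, 48.2 and 46.8 TPM in WT samples, a smaller fall (-0.19, SE 0.0441, limma adjusted p = 0.0013). The ratio of GCLM to GCLC was 0.336 ± 0.00326 in CSE and 0.447 ± 0.00683 in WT, without overlap. GSS, glutathione synthetase, which adds glycine, rose to 108 ± 3.48 TPM in CSE, against 93.0 ± 2.88 TPM in WT (0.22, limma adjusted p = 0.000177). GSR, which returns oxidised glutathione to its reduced form, was at 184 ± 3.73 TPM in CSE and 193 ± 1.05 TPM in WT and did not pass (-0.07, 95% interval -0.15 to 0.0074, limma adjusted p = 0.124). All its CSE values lay below all WT values. GSR passed as lower after quantile normalization (-0.14, limma adjusted p = 0.00155) or without mitochondrially encoded genes (-0.13, limma adjusted p = 0.00293).

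Of the 6 tested glutathione transferases among the members, 5 rose and MGST3 did not pass. Over the 16 members of glutathione synthesis and use together, 13 were tested, of which 7 rose (53.8%, against 24.5% of all genes tested), 3 fell (23.1%, against 25.6%) and 3 did not pass. The further glutathione genes of the pathway list were split as well, with 17 tested. Of these, 5 were higher (29.4%, against 24.5% of all genes tested), 6 lower (35.3%, against 25.6%) and 6 did not pass. Of the transferases among them, GSTCD was higher (0.19, limma adjusted p = 0.0124), GSTM2 (-0.32, limma adjusted p = 0.0132) and GSTT2B (-0.17, limma adjusted p = 0.0351) were lower, and GSTA4, GSTM4 and GSTZ1 did not pass. Single samples decided these 3 calls: GSTCD lost its call without CSE replicate 2 (limma adjusted p = 0.0783), GSTM2 without CSE replicate 3 (0.0546) or WT replicate 2 (0.0526), and GSTT2B without CSE replicate 2 (0.134), CSE replicate 3 (0.102), WT replicate 1 (0.184) or WT replicate 2 (0.0789). GSTM2 lay near the filter limit of 1 TPM, at 1.01, 1.09 and 0.83 TPM in CSE samples, against 1.53, 1.54 and 1.32 TPM in WT samples. It passed that filter through its WT values. MGST2, a membrane-bound transferase that can also make leukotriene C4, had 11.1, 10.6 and 10.5 TPM in CSE samples, against 7.51, 7.32 and 6.17 TPM in WT samples (log2 fold change 0.55, SE 0.0710, limma adjusted p = 1.41e-06). MGST1, its microsomal and mitochondrial relative, had 82.0, 75.9 and 84.5 TPM in CSE samples, against 59.9, 55.5 and 59.6 TPM in WT samples (0.46, SE 0.0472, limma adjusted p = 5.57e-08). Both were higher in all CSE samples, whereas the third family member MGST3, at 66.2 ± 1.51 TPM in CSE and 67.0 ± 3.65 TPM in WT, did not pass (-0.02, 95% interval -0.11 to 0.079). GSTO1, an omega-class transferase that reduces dehydroascorbate, had 156, 156 and 181 TPM in CSE samples, against 126, 130 and 121 TPM in WT samples. CSE replicate 3 was its highest sample and the groups did not overlap (0.38, SE 0.0498, limma adjusted p = 1.88e-06). GSTP1, the pi-class transferase and the second most abundant member in WT, rose to 783 ± 27.6 TPM in CSE, against 671 ± 22.0 TPM in WT (0.22, limma adjusted p = 6.25e-05). Quantile normalization gave a smaller rise of GSTP1 (0.09, limma adjusted p = 0.00152). GSTK1, found in mitochondria and peroxisomes, rose as well (0.21, limma adjusted p = 0.00103).

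The glutathione peroxidases went different ways. GPX1, which reduces hydrogen peroxide, rose to 386 ± 11.3 TPM in CSE, against 345 ± 15.0 TPM in WT (log2 fold change 0.16, limma adjusted p = 0.0017). GPX8, a peroxidase of the endoplasmic reticulum membrane, had 30.1, 29.7 and 30.2 TPM in CSE samples, against 37.9, 38.5 and 37.8 TPM in WT samples, a fall of 1.27-fold (-0.33, SE 0.0456, limma adjusted p = 3.39e-06). GPX4, which reduces lipid hydroperoxides and holds back ferroptosis, had 418, 423 and 459 TPM in CSE samples, against 423, 395 and 398 TPM in WT samples. Its groups overlapped and it did not pass (0.09, 95% interval 0.0078 to 0.18, limma adjusted p = 0.0645). GPX2 (0.28 to 0.48 TPM in CSE and 0.32 to 0.58 TPM in WT), GPX3 (0.31 to 0.48 TPM in CSE and 0.42 to 0.90 TPM in WT) and GSTM3, listed at 0 in all 6 libraries, were not tested.

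**Figure D3:**
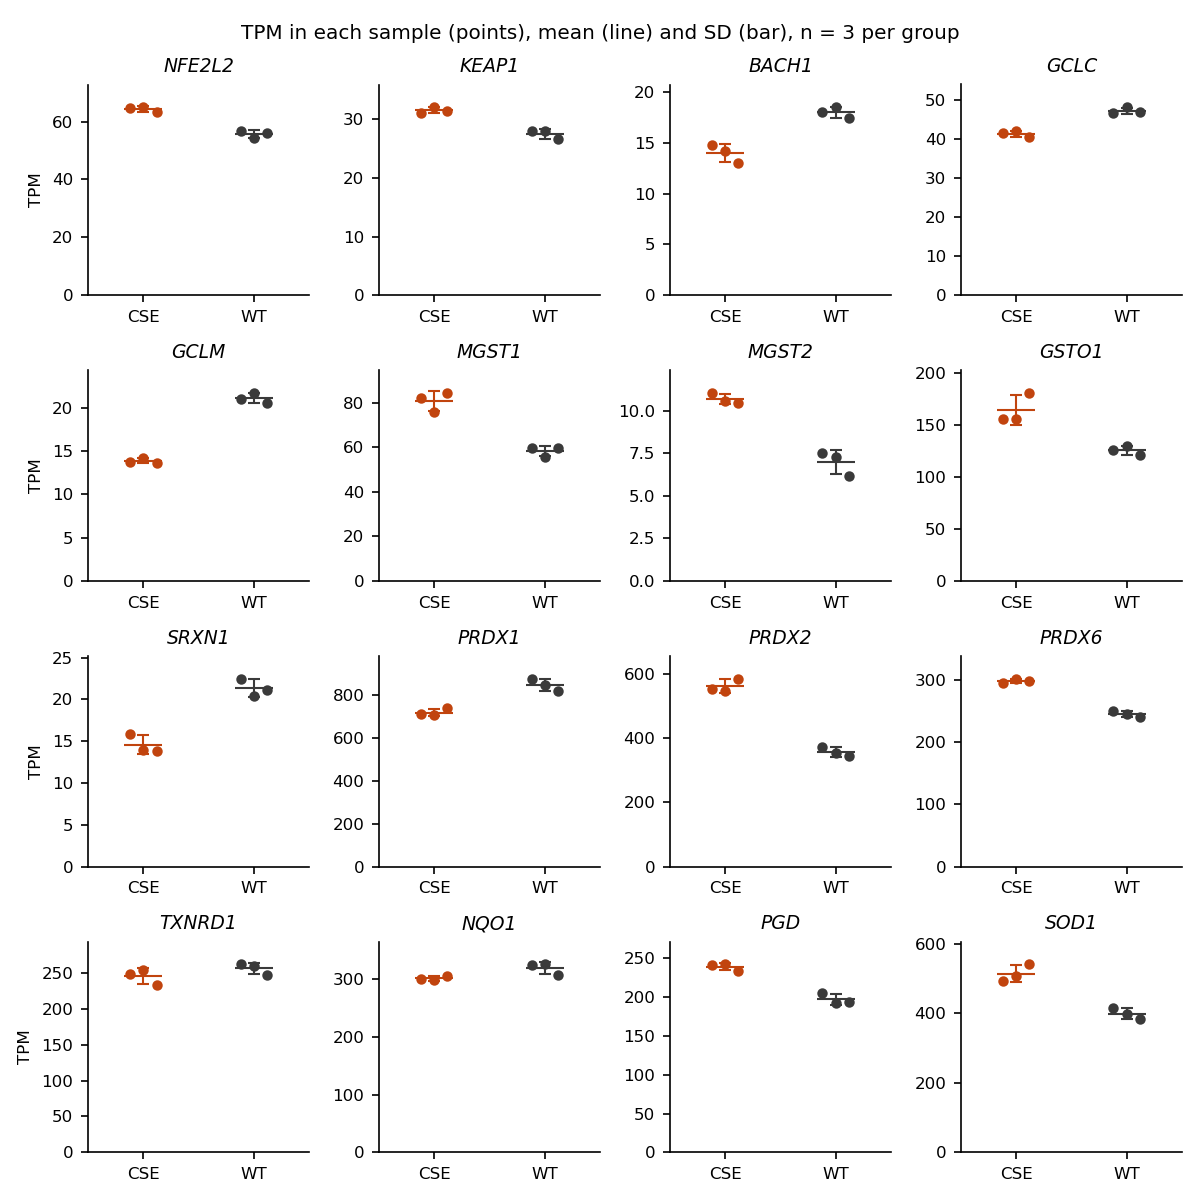
TPM of 16 members in each of the 3 CSE samples (orange-red, left) and 3 WT samples (dark grey, right), with the group mean as a line and the SD as a bar, on axes that start at 0. GCLM, SRXN1, BACH1, GCLC and PRDX1 sit lower in CSE and PRDX2, MGST1, MGST2 and SOD1 higher, each without overlap, while the TXNRD1 values overlap.

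In the thioredoxin and peroxiredoxin group, PRDX2 showed the largest rise and SRXN1 the largest fall. Peroxiredoxins reduce peroxides through a cysteine that thioredoxin regenerates, and sulfiredoxin (SRXN1) restores peroxiredoxins whose cysteine has been overoxidised. PRDX2 (ENSG00000167815, chromosome 19, 12796820 to 12801859, minus strand) had 554, 546 and 585 TPM in CSE samples, against 372, 353 and 344 TPM in WT samples. This 1.58-fold rise was the largest of any tested member on the log2(TPM + 1) scale (0.66, SE 0.0399, limma adjusted p = 1.98e-11). PRDX1, the most abundant member in WT, had 709, 706 and 736 TPM in CSE samples, against 875, 845 and 816 TPM in WT samples, a fall of 1.18-fold (-0.24, SE 0.0377, limma adjusted p = 2.19e-05, and -0.38 under quantile normalization). The ratio of PRDX2 to PRDX1, both cytosolic, was 0.784 ± 0.0105 in CSE and 0.422 ± 0.00394 in WT. SRXN1 (ENSG00000271303, chromosome 20, 646615 to 653370, minus strand) had 15.9, 14.0 and 13.9 TPM in CSE samples, against 22.5, 20.5 and 21.1 TPM in WT samples. It was 1.46-fold lower (-0.52, SE 0.0604, limma adjusted p = 3.48e-07).

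Of the other peroxiredoxins, PRDX5 and PRDX6 rose, PRDX4 fell and PRDX3 did not pass. PRDX6, which works with glutathione in place of thioredoxin, had 295, 302 and 297 TPM in CSE samples, against 250, 246 and 240 TPM in WT samples (log2 fold change 0.28, SE 0.0365, limma adjusted p = 1.7e-06). PRDX4 of the endoplasmic reticulum fell to 110 ± 3.54 TPM in CSE, against 124 ± 4.13 TPM in WT (-0.17, limma adjusted p = 0.00136). PRDX3, the mitochondrial form, was at 415 ± 1.75 TPM in CSE and 395 ± 14.7 TPM in WT and did not pass (0.07, limma adjusted p = 0.109). PRDX5 passed as higher (0.12, limma adjusted p = 0.0163), a call lost without CSE replicate 3 (limma adjusted p = 0.0713), WT replicate 2 (0.0901) or WT replicate 3 (0.0694), and after quantile normalization (0.168) or without mitochondrially encoded genes (0.112).

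The cytosolic thioredoxin pair did not pass, and the mitochondrial pair rose. Thioredoxin TXN had 553, 557 and 604 TPM in CSE samples, against 557, 548 and 525 TPM in WT samples, with overlapping groups (log2 fold change 0.07, 95% interval -0.012 to 0.16, limma adjusted p = 0.144). Its reductase TXNRD1, a selenoprotein and a standard NRF2 target, had 248, 254 and 233 TPM in CSE samples, against 262, 260 and 247 TPM in WT samples. These overlapped too (-0.07, 95% interval -0.15 to 0.019, limma adjusted p = 0.186), and TXNRD1 passed as lower after quantile normalization (-0.13, limma adjusted p = 0.0133) or without mitochondrially encoded genes (-0.12, limma adjusted p = 0.00856). The mitochondrial TXN2 rose to 77.4 ± 1.48 TPM in CSE, against 69.0 ± 4.23 TPM in WT (0.16, limma adjusted p = 0.00518). The mitochondrial reductase gene TXNRD2 had 6.28, 5.94 and 5.94 TPM in CSE samples, against 4.84, 4.58 and 4.52 TPM in WT samples (0.32, SE 0.0717, limma adjusted p = 0.000824). TXNIP, the inhibitor of thioredoxin, was listed at 0 to 0.03 TPM in all samples and was not tested.

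All 4 members of NADPH supply rose, where 24.5% of all genes tested and 42.2% of those at 100 TPM or more did. The further NADPH genes of the pathway list were split. Of 9 tested, 3 were higher (33.3%, against 24.5% of all genes tested), 3 lower (33.3%, against 25.6%) and 3 did not pass. Higher were IDH2 (log2 fold change 0.36, limma adjusted p = 6.55e-07), PGLS (0.32, limma adjusted p = 2.37e-05) and NADK2 (0.25, limma adjusted p = 0.00111). All 3 were past 1.2-fold (ratio of group means), which none of the lower genes reached. Lower were RPE (-0.23, limma adjusted p = 0.000192) and RPIA (-0.19, limma adjusted p = 0.00121), which interconvert pentose phosphates, and cytosolic IDH1 (-0.10, limma adjusted p = 0.0421). The IDH1 call was lost without CSE replicate 1 (limma adjusted p = 0.197), CSE replicate 2 (0.111), WT replicate 2 (0.176) or WT replicate 3 (0.0546). NADPH carries the electrons that glutathione reductase and thioredoxin reductase pass on, and the pentose phosphate pathway is a main source of it. PGD, 6-phosphogluconate dehydrogenase, which makes NADPH directly, had 241, 242 and 234 TPM in CSE samples, against 205, 192 and 193 TPM in WT samples (0.28, SE 0.0387, limma adjusted p = 4.35e-06). The non-oxidative enzymes TKT (0.24, limma adjusted p = 2.24e-05) and TALDO1 (0.20, limma adjusted p = 0.000163) rose as well, to 455 ± 7.78 and 249 ± 6.51 TPM in CSE, against 385 ± 16.4 and 217 ± 5.02 TPM in WT. Malic enzyme ME1 was at 52.9 ± 0.464 TPM in CSE and 48.5 ± 1.96 TPM in WT (0.13, limma adjusted p = 0.024). Of these, only the ME1 call depended on single samples: it was lost without CSE replicate 1 (limma adjusted p = 0.0542), CSE replicate 2 (0.0665) or WT replicate 3 (0.121), and with mitochondrially encoded genes left out (0.125).

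None of the 7 carbonyl reducing enzymes among the members passed, and 4 of these were too low to test. Of all genes tested, 50.1% passed in either direction, so the 3 tested enzymes are too few to set this group apart. On the pathway list, AKR7A2 (log2 fold change 0.29, limma adjusted p = 1.05e-05), DCXR (0.26, limma adjusted p = 0.00014) and DHRS4 (0.27, limma adjusted p = 0.00142) passed as higher. AKR1A1 (-0.03, limma adjusted p = 0.583) and CBR4 (0.08, limma adjusted p = 0.231) did not pass. The share that passed as higher was 24.5% over all genes tested. Aldo-keto reductases and carbonyl reductases convert reactive aldehydes and ketones to alcohols, and the AKR1C and AKR1B10 genes are among the strongest NRF2 targets of many human cells. AKR1B10 was at 0.40 to 0.59 TPM in CSE and 0.34 to 0.78 TPM in WT, AKR1C1 at 0.56 to 0.93 TPM in CSE and 0.69 to 0.84 TPM in WT, and AKR1C2 at 0.19 to 0.26 TPM in CSE and 0.34 to 0.50 TPM in WT. CBR1 was listed at no more than 0.08 TPM in any sample. AKR1C3 was at 4.63 ± 0.175 TPM in CSE and 4.40 ± 0.261 TPM in WT, AKR1B1 at 91.3 ± 0.998 TPM in CSE and 89.2 ± 3.90 TPM in WT, and CBR3 at 5.58 ± 0.434 TPM in CSE and 4.82 ± 0.473 TPM in WT. Their limma adjusted p values were 0.533, 0.518 and 0.0695, and the 95% interval of the log2 fold change of CBR3 was 0.012 to 0.34. The AKR1C genes are close paralogs, most of all AKR1C1 and AKR1C2, and how the authors' counting treated reads shared among them is not known, so their separate values are uncertain.

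The other NRF2 targets were split. Of 6 tested, 1 was higher (16.7%, against 24.5% of all genes tested), 2 were lower (33.3%, against 25.6%) and 3 did not pass. NQO1, the quinone reductase most often used as a readout of NRF2, had 300, 297 and 305 TPM in CSE samples, against 324, 325 and 307 TPM in WT samples. The CSE values lay just below the WT values, and the change did not pass (log2 fold change -0.08, 95% interval -0.16 to -0.0064, limma adjusted p = 0.0662). NQO1 passed as lower without CSE replicate 3 (limma adjusted p = 0.0385), without WT replicate 3 (0.0261), after quantile normalization (0.000357) and without mitochondrially encoded genes (0.000733). OSGIN1, an oxidative stress-induced growth inhibitor, had 18.8, 21.2 and 19.5 TPM in CSE samples, against 25.1, 23.5 and 24.6 TPM in WT samples, a fall of 1.23-fold (-0.29, SE 0.0554, limma adjusted p = 0.000201). TRIM16L fell to 7.74 ± 0.442 TPM in CSE, against 9.24 ± 0.753 TPM in WT (-0.23, limma adjusted p = 0.0105, or 0.0728 without WT replicate 3). The epoxide hydrolase EPHX1 (47.6 ± 1.86 and 48.9 ± 1.41 TPM in CSE and WT) and UGDH (40.0 ± 1.22 and 37.1 ± 1.22 TPM in CSE and WT), which makes UDP-glucuronate, did not pass, at limma adjusted p values of 0.511 and 0.0671. Pirin, PIR, passed as higher (0.13, limma adjusted p = 0.0446) although its groups overlapped, and 4 of the 6 single-sample omissions lost the call, with limma adjusted p values of 0.0581 without CSE replicate 1, 0.14 without CSE replicate 3, 0.25 without WT replicate 2 and 0.0913 without WT replicate 3.

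Of the enzymes that remove superoxide and hydrogen peroxide, SOD1 and catalase rose and SOD2 did not pass. Cytosolic SOD1 (ENSG00000142168, chromosome 21, 31659622 to 31668931, plus strand) had 494, 507 and 541 TPM in CSE samples, against 415, 399 and 383 TPM in WT samples. All CSE values were higher (log2 fold change 0.36, SE 0.0411, limma adjusted p = 2.4e-07). Mitochondrial SOD2, an inflammation-responsive enzyme, had 13.5, 14.0 and 14.2 TPM in CSE samples, against 13.6, 14.2 and 13.9 TPM in WT samples. Its groups overlapped (95% interval -0.12 to 0.12, limma adjusted p = 0.983). Another annotated gene of the same name, on the same strand, shares 5.12% of the exon bases of the SOD2 gene used here. The deposited data hold no values for it. Whether the SOD2 values given here cover all SOD2 expression was not tested. Catalase (CAT) of peroxisomes had 106, 108 and 100 TPM in CSE samples, against 86.9, 90.8 and 85.1 TPM in WT samples (0.26, SE 0.0426, limma adjusted p = 3.81e-05).

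RefSeq promoter windows were searched for the core of the antioxidant response element, TGACNNNGC, on both strands. The windows (GRCh38.p14) of 300 bases, 250 before and 50 from the transcription start on, were at hand for 41 of the 51 members. A match was found in a window of 12 of the 41 (29.3%), and in a window of 16.1% of all 27305 genes with a window. Genes with more windows have more chances of a match. Counted by window, 13 of the 61 member windows held a match, as did 13.3% of all 35116 windows. By result, 7 of 16 members that were higher, 1 of 7 that were lower and 2 of 11 that did not pass held one. The motif can contain the AP-1 motif TGANTCA, which 7.71% of all windows hold, and did so in GSTP1, ME1 and PIR. A match of these letters describes the sequence and is not a measured binding site, and windows this short leave out elements farther upstream.

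GCLM, which fell, and PGD, which rose, both held 1 match to the core, with different letters at its 3 free (N) positions. The 250 bases before each RefSeq start are shown in the 5′ to 3′ direction of the gene, with the match in capitals (here on the opposite strand in both, so that it reads as its reverse complement). They lie at chr1:93909431-93909680 on the minus strand for GCLM and at chr1:10398814-10399063 on the plus strand for PGD. The match begins at position -34 in GCLM and -201 in PGD, counted with the first transcribed base as 0.
GCLM: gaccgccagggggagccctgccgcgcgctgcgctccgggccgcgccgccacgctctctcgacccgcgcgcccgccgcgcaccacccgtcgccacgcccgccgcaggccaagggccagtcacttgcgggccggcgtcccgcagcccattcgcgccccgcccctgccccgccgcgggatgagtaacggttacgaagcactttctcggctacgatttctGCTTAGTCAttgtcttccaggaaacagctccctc
PGD: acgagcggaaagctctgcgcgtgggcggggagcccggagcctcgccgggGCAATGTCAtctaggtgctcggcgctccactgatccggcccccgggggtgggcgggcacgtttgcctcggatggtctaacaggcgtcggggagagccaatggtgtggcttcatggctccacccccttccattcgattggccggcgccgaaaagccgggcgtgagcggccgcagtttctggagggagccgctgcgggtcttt

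GSTO1 held 2 matches upstream of its start, at positions -226 and -161, and MGST1 held 1 at position 30, inside the transcribed part of 1 of its windows. For GSTO1 and MGST1, which rose, 30 bases around each match are shown to set the matches side by side. They lie on the plus strand at chr10:104254656-104254685, chr10:104254721-104254750 and chr12:16347135-16347164.
GSTO1 first match: ggcggagggaTGACTGAGCatttataactt
GSTO1 second match: cgagatgcttTGACACAGCcccttaagatg
MGST1: ggggacatcgTGACAAAGCaaattgtctgg

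A further 80 genes of the same pathways, chosen with earlier results of these data known, gave a more even picture. Of these, 73 were tested, of which 20 were higher, 17 lower and 36 did not pass, with a median log2 fold change of 0.02. That is 27.4% higher and 23.3% lower, against 24.5% and 25.6% of all genes tested. With mitochondrially encoded genes left out, 13 were higher and 24 lower. HMOX1, haem oxygenase 1 and another standard NRF2 and BACH1 target, had 32.9, 31.1 and 32.2 TPM in CSE samples, against 32.8, 34.9 and 30.8 TPM in WT samples. These values overlapped (-0.03, 95% interval -0.14 to 0.073, limma adjusted p = 0.602). SLC7A11, the cystine importer that feeds glutathione synthesis, fell to 40.2 ± 4.55 TPM in CSE, against 50.5 ± 3.46 TPM in WT (-0.33, limma adjusted p = 0.000248).

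None of the 10 genes listed under NRF2 partners, relatives and turnover passed as higher, where 24.5% of all genes tested did. Of these 10 genes, 4 fell (40%, against 25.6% of all genes tested) and 6 did not pass. Of the small MAF genes, MAFG (-0.43, limma adjusted p = 3.19e-08) and MAFF (-0.35, limma adjusted p = 1.7e-06) fell. MAFK did not pass (0.03, limma adjusted p = 0.614, and -0.03 without mitochondrially encoded genes). The NRF2 relatives NFE2L1, which controls proteasome genes, and NFE2L3 fell as well (-0.37 and -0.47, limma adjusted p = 1.48e-07 and 3.72e-08). The largest rise on the list was that of ABCC2, an export pump for glutathione conjugates, to 54.4 ± 3.69 TPM in CSE, against 30.8 ± 0.892 TPM in WT (0.80, limma adjusted p = 4.6e-11). Other ABCC pumps on the list did not rise. ABCC4 (-0.26, limma adjusted p = 0.000923) and ABCC5 (-0.21, limma adjusted p = 0.00742) fell. ABCC1 and ABCC3 did not pass (limma adjusted p = 0.788 and 0.703). LANCL1, a glutathione-binding protein, rose by 0.38 (limma adjusted p = 3.48e-06). Mitochondrial isocitrate dehydrogenase IDH2 rose by 0.36 (limma adjusted p = 6.55e-07) and the methionine sulfoxide reductase MSRB2 by 0.34 (limma adjusted p = 3.83e-05). Ferritin heavy chain FTH1 showed the largest fall, to 1172 ± 53.8 TPM in CSE, against 1725 ± 56.8 TPM in WT (-0.56, limma adjusted p = 3.23e-10).

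**Figure D4:**
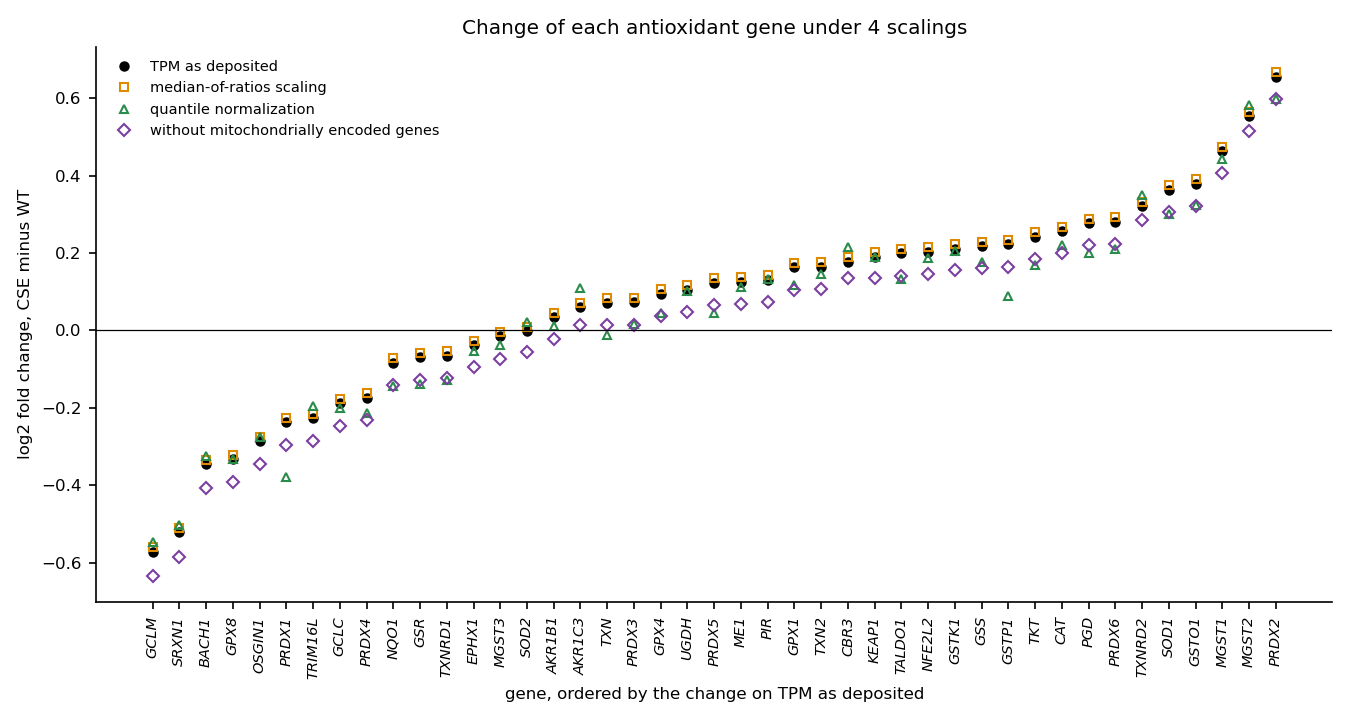
Log2 fold change (CSE minus WT) of each tested member on TPM as deposited (filled black circles), after median-of-ratios scaling (orange squares), after quantile normalization (green triangles) and without mitochondrially encoded genes (purple diamonds). The 5 members past a 1.2-fold test, GCLM, SRXN1, MGST1, MGST2 and PRDX2, keep their sign under all 4, and only members near 0 (TXN, AKR1B1 and SOD2) change sign.

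The plot of the 4 scalings shows that quantile normalization moved some abundant members most. Besides the shifts of GSTP1 and PRDX1 given above, it took PRDX5 to 0.05 (limma adjusted p = 0.168) and GSR to -0.14 (limma adjusted p = 0.00155), so that PRDX5 lost its call and GSR, like NQO1 and TXNRD1, passed as lower. In a stricter limma test against a change of 1.2-fold, 5 members passed: PRDX2, MGST1 and MGST2 as higher and GCLM and SRXN1 as lower. For all members, bulk TPM cannot tell less RNA per cell from fewer cells with the transcript. Some members overlap other genes in GENCODE 29: 85% of the exon bases of SRXN1 are shared with the gene AL121758.1 on the same strand, listed at 0 to 0.08 TPM, and 24.9% of those of PRDX1 with MMACHC on the opposite strand, listed at 7.10 to 7.91 TPM in CSE samples and 5.87 to 6.30 TPM in WT samples.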

How the data were processed

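The deposited table gives TPM for 20263 genes in 6 RNA-seq libraries, 3 of each group. Per the submitters' processing notes, FastQC 0.11.2, Trimmomatic 0.36, HISAT2 2.0, bedtools 2.26.0 and GRCh38 were used. Neither the counting program, the annotation nor its use of strand is stated in what was read here. TPM keeps no depth, so no counting interval was computed.

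Symbols were matched for 20197 gene IDs, 20148 from a current name table and the rest (SOD2 among them) from GENCODE 29, which also gave positions. limma 3.58.1 (R 4.3.3, empirical Bayes with a variance trend, no covariate) compared log2(TPM + 1) of the 12793 genes that reached 1 TPM in 3 or more libraries. Adjusted p values follow Benjamini and Hochberg over all of these. The pseudocount of 1 understates changes of low genes.

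Members and lists were chosen with earlier results of these data known. Values per sample are given for the regulators, a list of core genes (NQO1, GCLC, GCLM, TXNRD1, TXN, SRXN1, GPX4, SOD1, SOD2 and CAT) and each member called at 1.2-fold or more. From the pathway list the 4 strongest called changes each way are named, with HMOX1 and SLC7A11; another gene of that rule is not reported here. PRDX1, MAFF, MAFK, PGLS, NADK2, RPE, RPIA, IDH1, the other ABCC pumps, the further transferases and carbonyl reducing enzymes, the ratios and the split by expression level were added after the values were seen.

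Among the alternatives were another pseudocount (0.1), other filters (none, or a mean of 5 TPM), 3 other scalings (median of ratios, quantile, mitochondrially encoded genes removed), other variance settings (no trend, robust), blocking on replicate number, testing against a 1.2-fold change and omitting each sample.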

Additional observations from a re-analysis of the deposited data

How the results depend on the processing

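Of the 30 called members, 26 kept their direction and their call in all alternatives other than the test against a 1.2-fold change, and the exceptions were PRDX5, ME1, PIR and TRIM16L. None of the 30 changed direction in any of the 16 alternatives. With a sample left out in turn, 18 to 22 members were higher and 9 to 10 lower, and without CSE replicate 3, the sample that stood apart, the counts were 20 and 10. Without the filter on low values, 19 members were higher and 10 lower of 50 tested. In the test against a 1.2-fold change, 3 members were higher and 2 lower, 1 gene of the pathway list was higher and 3 lower, and over all genes 431 were higher and 460 lower, a stricter question by construction. With mitochondrially encoded genes left out, 13 genes of the pathway list were higher, against 20 with TPM as deposited. The same rescaling moved the median log2 fold change of all genes tested from -0.0039 to -0.059. Over all genes, 2353 were then higher and 4548 lower, against 3130 and 3277 with TPM as deposited. Whether the pathway list moved beyond this general shift was not tested. Over the samples left out, the pathway list had 16 to 22 higher and 15 to 18 lower, and all genes 2525 to 3518 higher and 2557 to 3210 lower. Among the members, HMOX1 and the called pathway genes named, direction changed only for genes that had not passed: MGST3 (-0.060 to 0.015 with a sample left out), TXN (-0.011 under quantile normalization), AKR1B1 (-0.023 with mitochondrially encoded genes left out, -0.00047 to 0.061 with a sample left out), SOD2 (0.0096 with median-of-ratios scaling, 0.022 under quantile normalization, -0.015 to 0.019 with a sample left out) and HMOX1 (-0.078 to 0.0094 with a sample left out). Of the 13 members that had not passed, 7 passed in at least 1 alternative: GSR, GPX4, TXNRD1, PRDX3, CBR3, NQO1 and UGDH. With the replicate number as a block, 21 members were higher and 9 lower, and all genes numbered 3188 and 3349. Deviations of same-numbered samples from their group means correlated at -0.071, 0.015 and -0.088, against -0.089 to 0.12 for differently numbered pairs. Whether same-numbered samples share a culture or batch is not stated in the labels and was not tested. Without counts, the depth that limits low genes is unknown.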
